A study of Mus musculus with 24 samples.

Results

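Genes for the protein parts of the mitochondrial ribosome were followed in cultured mouse oligodendrocytes given ethanol at either of 2 concentrations. The members were chosen by symbol, as Mrpl or Mrps followed by a number and at most 1 letter, with pseudogenes left out, and by a mean raw count of at least 10 over the 24 wells. The rule found 74 genes, 47 named Mrpl and 27 named Mrps, among the 55359 rows of the count table, of which 13444 had a mean count that high. Another 4 genes matched by symbol and fell short of the count. Just inside the limit were Mrpl23 with a mean of 14.7 counts, Mrpl22 with 28.4 and Mrps31 with 29.9. Just outside were Mrpl24 with a mean of 2.92, Mrps18b with 1.17, Mrps34 with 0.0417 and Mrpl53 with 0. All 74 members passed the filter on low counts in each of the 4 comparisons made, so no member was lost before testing.

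The study grew oligodendrocytes, the myelin-forming cells of the brain, from the cortices of C57Bl6J pups of postnatal days 5 to 7, sorted with magnetic beads against the O4 antigen and differentiated for 3 days, mainly with triiodothyronine. The cells then spent 3 days with or without ethanol. Experiment 1 held 6 wells with 30 mM ethanol, called a high concentration by the submitters, and 6 control wells at 0 mM. Experiment 2 held 6 wells with 10 mM, called moderate, and 6 control wells of its own. Every group therefore had the same strain, sorting method, hormone and time in culture. The controls of each experiment stood in an incubator of their own to keep them free of ethanol vapour, and the effect of the incubator cannot be told apart from that of ethanol. Each concentration belonged to 1 experiment and 1 sequencing batch, so concentration and experiment cannot be told apart either. The labels name the wells biological replicates without saying which pups went into which well, so the tests measure the spread between wells.

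The mitochondrial ribosome translates the few proteins that the mitochondrial genome still encodes, all of them core parts of the respiratory chain or the ATP synthase. Its own proteins are encoded in the nucleus, made in the cytosol and imported. Some have counterparts in bacterial ribosomes and others are found only in mitochondria, and together they surround ribosomal RNAs that the organelle transcribes itself. Oligodendrocytes have a heavy demand for energy and lipid synthesis while they build myelin.

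Libraries held between 1184609 and 1817028 counts, of which 6409 to 10869 per well came from the 74 members. At this depth 3 counts amounted to between 1.65 and 2.53 CPM (counts of a gene per 1000000 counts of its library), well below the level of nearly every member. Markers of mature oligodendrocytes, such as Mbp and Mag, summed to between 4150 and 9640 CPM, and no marker of any cell type on the lists was at 0 in every well, so astrocyte, microglial and mural cell transcripts were present too. In RNA from whole wells, fewer cells of a type and less RNA per cell cannot be told apart. Well 1 of the 30 mM group stood farthest from its neighbours. Its chi-square per degree of freedom over genes was between 2.07 and 2.88 against the other 5 wells. Well 2 stood apart too, at 1.75 to 2.12 against wells 3 to 6, which differed from each other by 1.16 to 1.42. Wells 1 and 2 were also the deepest of the group, at 1688867 and 1610397 counts, and the part of depth was not tested. Counts of members are also given without well 1.

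The members were expressed at moderate and rather even levels. Their mean levels over all wells had a median of 63 CPM with quartiles at 40.4 and 91.2, and 71 of the 74 lay between 20 and 200 CPM. The libraries hold reads from transcript ends, so CPM did not scale with transcript length and served as the measure of level. Mrps6, a small subunit protein with a bacterial counterpart, stood above all others at 419.9 CPM, which was 7.6% of the members' sum. It was followed by Mrpl52 at 192.1 CPM, Mrpl20 at 173.8, Mrpl12 at 167.5 and Mrpl51 at 151.1, all of the large subunit. Mrpl23 was lowest at 10.48 CPM. Exons of Mrps6 overlap those of Slc5a3 and Gm49711 on the same strand, over 19.9% of its exon bases, in an annotation of the earlier mouse assembly. The part of this overlap in its level was not tested.

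Summed over all members, expression was lower with 30 mM ethanol than in its controls and slightly higher with 10 mM than in its own. In the 30 mM wells the sum was 5286 CPM at its lowest, 5415 at its median and 5720 at its highest, against 5810, 5953.5 and 5989 in the controls of experiment 1. Every 30 mM well lay below every control well, and the means were 5445 ± 167 and 5930 ± 68.7 CPM (SD, n = 6 wells each), a change of -8.18%. In the 10 mM wells the sum ran from 5342 through a median of 5447.5 to 5699 CPM, against 5145, 5231 and 5403 in the controls of experiment 2. These groups overlapped, with means of 5482 ± 128 and 5257 ± 97.9 CPM (SD, n = 6 wells each), a change of 4.27%. The 2 control groups were themselves apart, with all 6 wells of experiment 1 above all 6 of experiment 2 and a mean 12.8% higher. The 30 mM mean thus lay between those of the control groups, while the 30 mM wells overlapped the controls of experiment 2. No test was made on the sum, since the genes in it were chosen with results known.

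**Figure D1:**
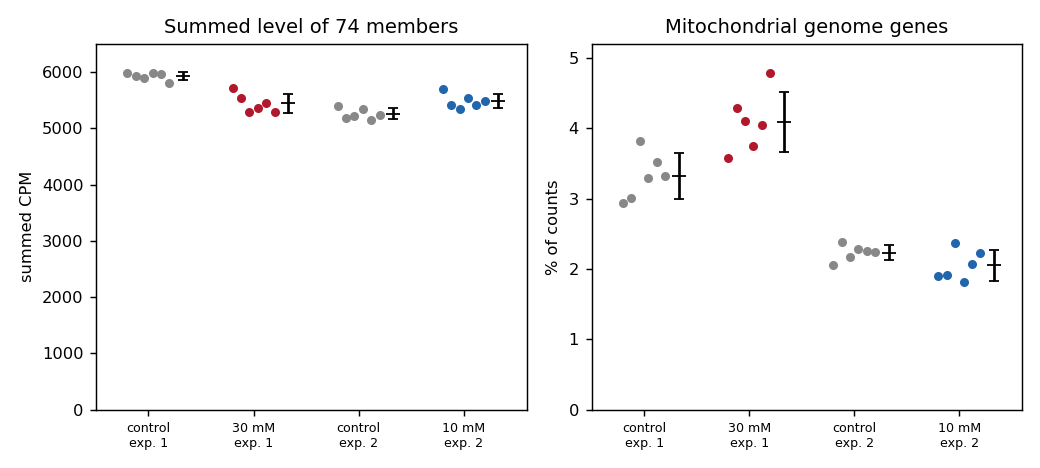
Left, the summed CPM of the 74 members in each of the 24 wells. Right, the percentage of counts from mitochondrial genome genes in the same wells. Points are wells, the horizontal mark is the mean and the bars are 1 SD (n = 6 per group), and the member sum is lowest in the controls of experiment 2 at a mean of 5257 and highest in the controls of experiment 1 at 5930.

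The fall at 30 mM was shallow and spread over many members. Of the 74, 59 had a log2 fold change below 0, which was 79.7% against 46% of all 13235 genes tested, and the median was -0.12 against 0.02 over all genes. The quartiles of the members lay at -0.20 and -0.03. The edgeR quasi-likelihood test, adjusted over all genes tested, called 7 members at an adjusted p under 0.05, all of them lower. That is 9.46% of the members beside 9.67% of all genes tested in either direction and 6.65% lower, so the share of members called was near the background. At an unadjusted p under 0.05 there were 21 members, 20 of them lower, which was 28.4% against 23.5% of all genes. Without well 1 of the 30 mM group 10 members were called, all lower, and the median was -0.13. Leaving out well 3 of the 30 mM group left 2 calls, and leaving out its well 6 or control well 1 left 3.

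**Figure D2:**
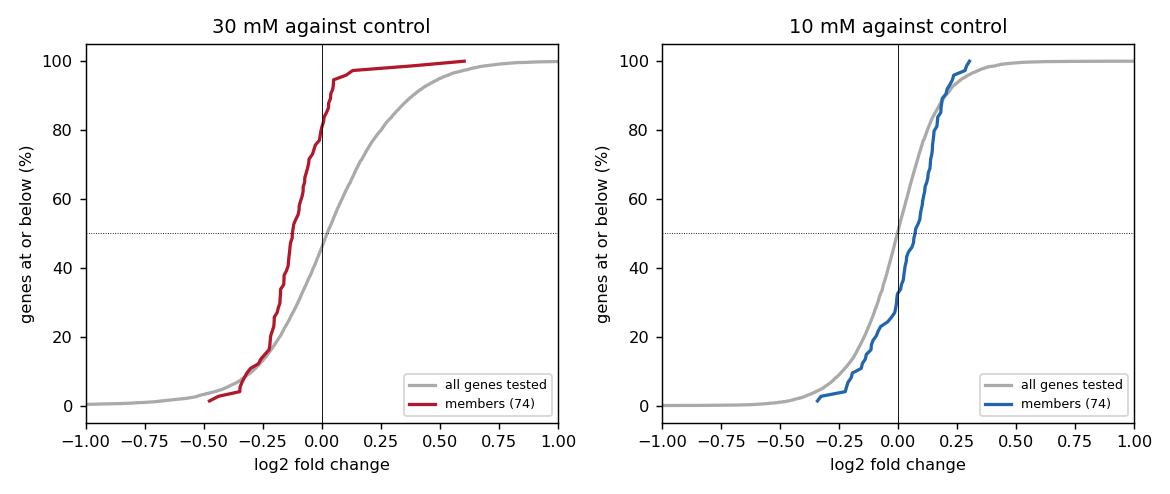
Cumulative percentage of genes at or below each log2 fold change, at 30 mM on the left and at 10 mM on the right, for the 74 members in colour and all genes tested in grey. The member curve lies left of the grey curve over most of its range at 30 mM, with a median of -0.12, and right of it at 10 mM, with a median of 0.07.

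The large subunit holds the peptidyl transferase centre and the exit tunnel. Of its 49 members, which include Mrps30 and Mrps18a because their products sit in that subunit despite the symbols, 41 were below 0 at 30 mM and 4 were called, or 8.16% beside 6.65% of all genes called lower. Among the 29 with a bacterial counterpart 23 were below 0, with a median of -0.10, and among the 20 found only in mitochondria 18 were below 0, with a median of -0.17.

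Mrpl18, whose bacterial counterpart binds 5S ribosomal RNA in the central protuberance, had the smallest p. In the 30 mM wells it ran from 89.8 CPM through a median of 100 to 113, and in the controls from 112 through 128 to 137. The groups met only at their edges, and its log2 level fell by 0.32 (SE 0.08, edgeR adjusted p = 0.00914). It stayed under 0.05 with each of the 12 wells left out in turn. Mrpl20, a bacterial-type protein that binds large subunit RNA early in assembly in bacteria, ran from 131 through 152 to 194 CPM with 30 mM and from 169 through 184 to 210 without. A single 30 mM well, the one at 194, lay inside the control range, and the gene fell by 0.27 (SE 0.08, edgeR adjusted p = 0.0282). It missed the threshold in 7 of 12 fits with a well left out, those without 30 mM wells 3, 4, 5 or 6 or control wells 1, 2 or 5, with adjusted p up to 0.112.

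Mrpl58, a peptidyl-tRNA hydrolase that became a structural part of the mitochondrial large subunit and is known for rescuing stalled ribosomes, ran from 47.2 through 50 to 55.1 CPM with 30 mM. Its controls ran from 53.8 through 63.4 to 77.7, so the groups overlapped narrowly. Its log2 level fell by 0.34 (SE 0.10, edgeR adjusted p = 0.0287). It missed without 30 mM wells 3, 5 or 6 or control wells 1, 2 or 3, with adjusted p up to 0.106. Mrpl51, a protein of the large subunit without a bacterial counterpart, ran from 130 through 142 to 150 CPM with 30 mM and from 160 through 164 to 171 without. All 6 ethanol wells lay below all 6 controls, and it fell by 0.22 (SE 0.07, edgeR adjusted p = 0.0345). Despite that separation it missed without 30 mM wells 3, 4, 5 or 6 or control wells 1, 3 or 4, with adjusted p up to 0.114.

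The small subunit decodes the messenger RNA. Of its 24 members, 18 were below 0 at 30 mM, with a median of -0.10, and 3 were called, or 12.5% beside 6.65% of all genes called lower. The 3 were among the 16 with a bacterial counterpart, and none was among the 8 found only in mitochondria, of which 6 were below 0 with a median of -0.10. With so few genes a class, nothing is read from that split. Mrps28 ran from 25 through 27.3 to 36 CPM with 30 mM and from 32.1 through 40 to 46.8 without. The highest ethanol well reached into the control range, and its log2 level fell by 0.48 (SE 0.13, edgeR adjusted p = 0.0151), the lowest fold change of any member. It missed only without control well 4, at an adjusted p of 0.064.

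Mrps10, whose bacterial counterpart sits in the head of the small subunit, ran from 23.8 through 30.9 to 35.3 CPM with 30 mM and from 37.4 through 42.7 to 47.3 without. The groups did not overlap, and it fell by 0.44 (SE 0.12, edgeR adjusted p = 0.0179). It missed without 30 mM well 3 or control well 5, at adjusted p of 0.0658 and 0.051. Mrps11, a protein of the platform, ran from 48.3 through 60.3 to 63.4 CPM with 30 mM and from 68 through 72.4 to 85.7 without. The groups did not overlap here either, and it fell by 0.33 (SE 0.10, edgeR adjusted p = 0.0217), missing without 30 mM wells 3 or 6 or control well 1, with adjusted p up to 0.0842. Mrpl51, Mrps10 and Mrps11 were the 3 members whose wells were all below the controls, 4.05% of the members beside 3.77% of all genes tested. No member had all 6 ethanol wells above the controls, against 1.21% of all genes tested. Upper-quartile scaling took the edgeR adjusted p of Mrpl20 and Mrpl58 to 0.0506 and that of Mrpl51 to 0.0593. DESeq2 gave 0.0521 for Mrpl20 and 0.0701 for Mrpl58, and edgeR with no filter on low counts gave 0.0847 for Mrpl51.

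**Figure D3:**
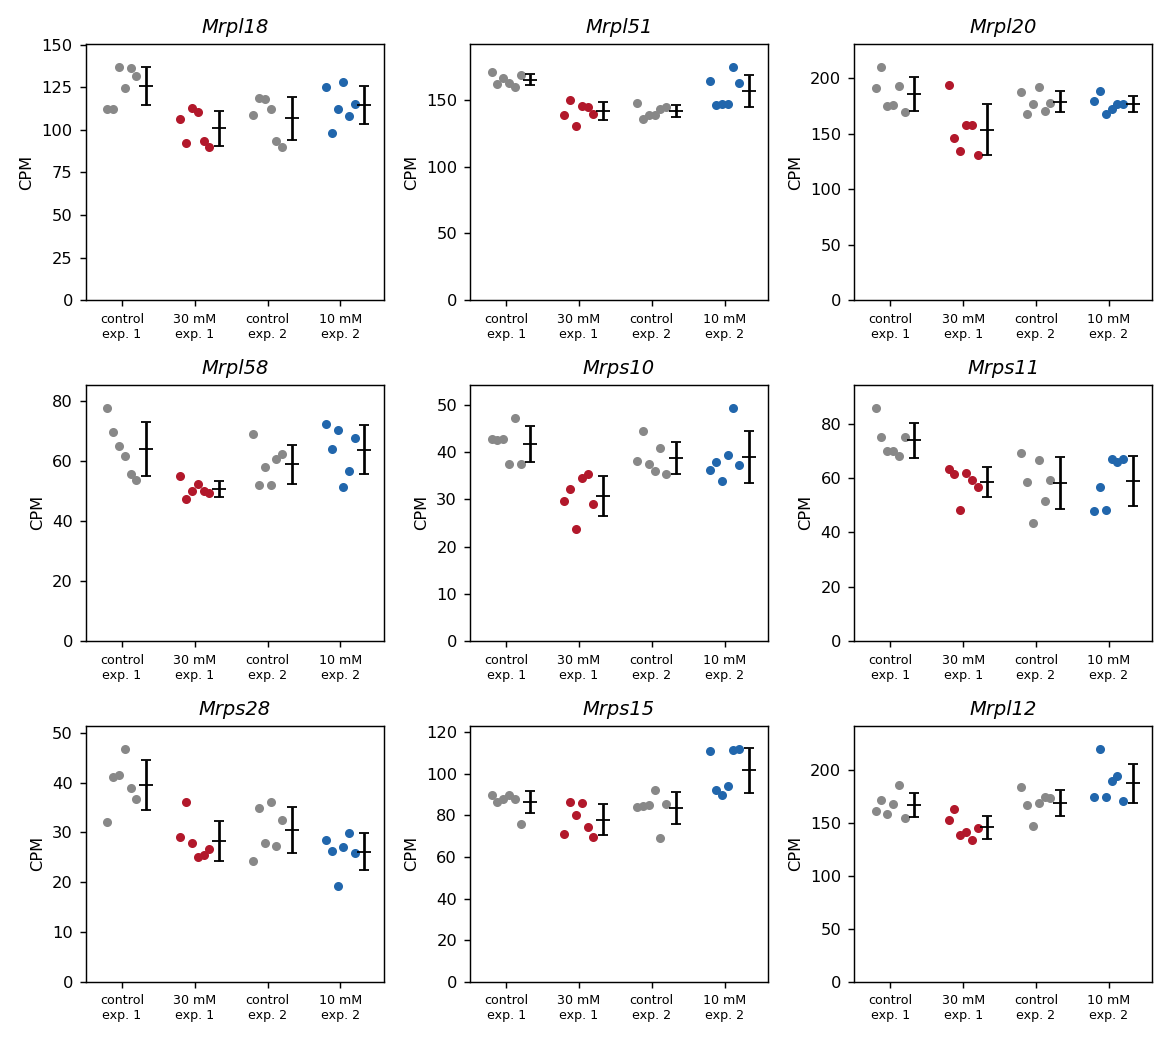
CPM of the 9 members called at 30 mM or for the difference between concentrations, in every well of the 4 groups. Points are wells, with the mean and 1 SD beside them (n = 6 per group), and axes start at 0. In Mrpl51, Mrps10 and Mrps11 every 30 mM well lies below every control well of experiment 1.

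Other members named by size or role did not pass at 30 mM. Mrpl27, of the large subunit near the transfer centre, was at -0.35 (SE 0.14, edgeR adjusted p = 0.103) and Mrpl39 at -0.35 (SE 0.13, adjusted p = 0.0944). Mrps30 was at -0.30 (adjusted p = 0.136) and Mrps18a at -0.16 (adjusted p = 0.312). Mrpl4, with Mrpl23 and Mrps36 the largest rises at 30 mM, was at 0.13 (edgeR adjusted p = 0.435). It was at -0.22 with 10 mM (adjusted p = 0.437) and at 0.34 for the difference between concentrations (adjusted p = 0.172), each opposite in sign to the median member. The abundant Mrps6 was at -0.13 (adjusted p = 0.233) and Mrpl52 at -0.17 (adjusted p = 0.134), both within the members' quartiles, while Mrpl20 and Mrpl51, also among the 5 highest in level, lay below the lower quartile. Without Mrps6 the sums were 5010 ± 129 CPM with 30 mM and 5454 ± 70.4 in its controls (SD, n = 6 wells each). Split by mean count, the 25 least counted members had a median of -0.14, the middle 24 of -0.08 and the 25 most counted of -0.12, with 2, 2 and 3 calls. The typical SE was 0.13 in the first of these classes and 0.08 in the last, so small changes of the least counted members were harder to detect.

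Structural proteins of the mitochondrial ribosome without an Mrp symbol were read beside the members. Chchd1, of the small subunit, ran from 57.4 through 59.9 to 67.7 CPM with 30 mM and from 66.3 through 77 to 85.3 without. The groups overlapped at 1 edge, and it fell by 0.31 (SE 0.09, edgeR adjusted p = 0.0267), missing in the fits without 30 mM wells 3, 4, 5 or 6 or control wells 3, 4 or 5, with adjusted p up to 0.0988, and in DESeq2 at 0.0623. Dap3, a GTP-binding protein of the same subunit, was at 0.04 (adjusted p = 0.787), Ptcd3 at -0.01 (adjusted p = 0.988), Aurkaip1 at -0.06 (adjusted p = 0.727) and Gadd45gip1, of the large subunit, at -0.26 (adjusted p = 0.337). None of the 5 passed at 10 mM.

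Promoters were searched for short motifs, and no motif searched was common to all the called members. RefSeq windows from 250 bases before to 50 after the annotated start, on assembly GRCm38.p6, were found for 66 of the 74 members. The ETS-type motif CCGGAAG, searched on either strand, was in 24 of the 66, or 36.4%, against 9.93% of the 27025 genes of the table and 19.3% of the 9692 genes tested at 30 mM that had a window. An exact YY1-type motif was in 5 members, 7.58% against 1.8% of tested genes, and an exact NRF1-type palindrome in 3, 4.55% against 2.3%. The E-box CACGTG was in 5 members, 7.58% against 11.5%, CCAAT in 26, 39.4% against 43.3%, and the GC box GGGCGG in 33, 50% against 68.4%. These motifs were sought as exact letters on either strand, and a match describes the window only. The 24 members with CCGGAAG had a median log2 fold change of -0.14 at 30 mM and 0.11 at 10 mM with 3 calls, and the 42 without had -0.09 and 0.07 with 3 calls. Among the called members CCGGAAG was in Mrpl18, Mrpl51 and Mrpl58, and Mrps28 had no window. Windows of 4 called members that hold an ETS-type or YY1-type match follow, cut at 30 bases after the start, 5′ to 3′ on the gene's strand with the matches in capitals. They lie at chr17:12916062-12916341 (minus strand) for Mrpl18, chr6:125191950-125192229 (plus) for Mrpl51, chr11:115403502-115403781 (plus) for Mrpl58 and chr7:78782881-78783160 (plus) for Mrps11. The capitals mark CCGGAAG in the first 3 and, in Mrps11, the reverse complement of the YY1-type motif.
Mrpl18: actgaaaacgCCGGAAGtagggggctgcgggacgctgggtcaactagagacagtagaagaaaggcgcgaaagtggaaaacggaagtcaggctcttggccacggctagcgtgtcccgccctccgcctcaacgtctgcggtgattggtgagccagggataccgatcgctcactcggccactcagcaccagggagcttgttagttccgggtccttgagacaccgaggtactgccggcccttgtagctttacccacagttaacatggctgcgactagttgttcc
Mrpl51: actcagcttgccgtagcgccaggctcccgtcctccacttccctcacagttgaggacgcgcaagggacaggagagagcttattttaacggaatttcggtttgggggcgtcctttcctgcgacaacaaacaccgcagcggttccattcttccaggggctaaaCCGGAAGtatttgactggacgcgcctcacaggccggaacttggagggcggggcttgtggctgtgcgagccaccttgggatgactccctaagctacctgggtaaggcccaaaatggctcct
Mrpl58: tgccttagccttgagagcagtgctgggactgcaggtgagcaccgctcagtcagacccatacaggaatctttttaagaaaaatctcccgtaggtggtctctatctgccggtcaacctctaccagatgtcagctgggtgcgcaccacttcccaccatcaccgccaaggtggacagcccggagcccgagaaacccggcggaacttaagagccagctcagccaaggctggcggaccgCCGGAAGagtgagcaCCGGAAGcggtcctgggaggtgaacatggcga
Mrps11: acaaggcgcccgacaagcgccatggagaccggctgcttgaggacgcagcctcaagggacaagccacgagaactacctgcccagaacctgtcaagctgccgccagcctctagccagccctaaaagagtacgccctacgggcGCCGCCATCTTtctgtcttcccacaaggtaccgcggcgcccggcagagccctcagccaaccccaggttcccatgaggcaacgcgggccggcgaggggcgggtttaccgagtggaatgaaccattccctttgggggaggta
The match begins 240 bases before the start in Mrpl18, 90 before in Mrpl51 and 110 before in Mrps11, while Mrpl58 carries a pair of them, beginning 17 and 2 bases before the start.

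At 10 mM the members leaned the other way without any gene passing. Of the 74, 50 were above 0, which was 67.6% against 49.3% of the 13538 genes tested, and the median log2 fold change was 0.07 against 0.00 over all genes. None was called at an adjusted p under 0.05 by edgeR, DESeq2 or limma voom, against 0.657% of all genes by edgeR. At an unadjusted p under 0.05 there were 13, 11 higher and 2 lower, or 17.6% against 10.1% of all genes. Large subunit members with a bacterial counterpart had a median of 0.02 and those found only in mitochondria of 0.12, while the small subunit classes were at 0.10 and 0.10.

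The members farthest from 0 at 10 mM were Mrpl9 at 0.30 (edgeR adjusted p = 0.467), Mrps15 at 0.29 (adjusted p = 0.0886) and Mrpl44 at 0.28 (adjusted p = 0.466) on the upper side. On the lower side were Mrpl23 at -0.34 (adjusted p = 0.622), Mrps36 at -0.33 (adjusted p = 0.438) and Mrpl3 at -0.22 (adjusted p = 0.506). Mrpl16, near the transfer centre, was the single member whose wells were all on 1 side, from 45.6 through 53.1 to 56.6 CPM with 10 mM against 56.6, 58.2 and 62.1 in its controls. The highest ethanol well and the lowest control round to the same level, and the log2 fold change of -0.16 did not pass (adjusted p = 0.617). That 1 member is 1.35% of the 74, beside 0.421% of all genes with all ethanol wells lower, and no member had them all higher, beside 0.473%.

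The difference between concentrations was tested directly, as the 30 mM fold change minus the 10 mM fold change over all 24 wells. It was negative for 62 of 74 members, 83.8% against 47.6% of the 14655 genes tested, with a median of -0.19 against 0.02. The tricarboxylic acid cycle and import lists read below leaned the same way, so the lean was not particular to the members. At an unadjusted p under 0.05 there were 26 members, 23 of them negative, which was 35.1% against 17.2%. By sign, 40 members were lower at 30 mM and higher at 10 mM, 19 were lower at both, 10 were higher at both and 5 were higher at 30 mM and lower at 10 mM. All 20 large subunit members found only in mitochondria had a negative difference, with a median of -0.32, against 21 of 29 with a bacterial counterpart, with a median of -0.16. In the small subunit the same classes had 7 of 8 and 14 of 16 negative, with medians of -0.20 and -0.19. Nothing is read from the split by type. The difference passed for 4 members, all negative, which was 5.41% beside 3.28% of all genes in either direction and 2.4% negative. Without well 1 of the 30 mM group 10 members passed, 9 negative and Mrps36 positive. Without control well 6 of experiment 1 there were 7, and without 30 mM well 6 or control well 5 of experiment 2 there were 2.

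**Figure D4:**
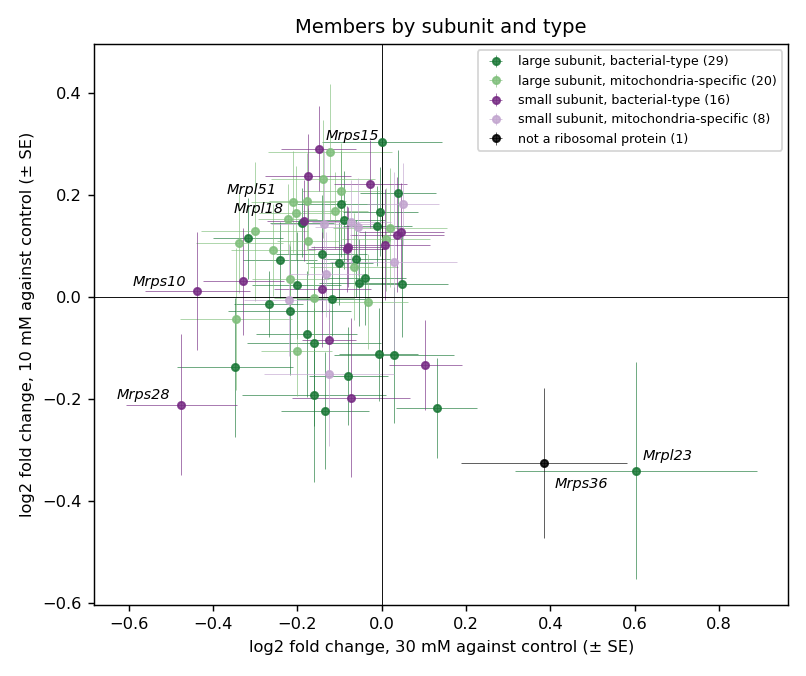
Log2 fold change of each of the 74 members at 30 mM (horizontal) and at 10 mM (vertical), each against its own controls, with bars of 1 SE and colours for subunit and type. Most points, 40 of 74, fall in the upper left, lower at 30 mM and higher at 10 mM, and 5 fall in the lower right, of which Mrps36 and Mrpl23 lie farthest out.

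Mrpl51 had the smallest p for the difference. With 10 mM it ran from 146 through 155 to 174 CPM, against 136, 141 and 147 in the controls of experiment 2, which overlapped only between 146 and 147. Its log2 fold change was 0.15 there (edgeR adjusted p = 0.438) and -0.22 at 30 mM, and the difference was -0.39 (SE 0.10, adjusted p = 0.0141). Mrpl18 ran from 97.9 through 114 to 128 CPM with 10 mM and from 89.7 through 110 to 119 without, with wide overlap. It was at 0.11 (adjusted p = 0.673), and its difference was -0.44 (SE 0.12, adjusted p = 0.0224). Both kept their difference under 0.05 with each of the 24 wells left out in turn.

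Mrps15, a small subunit protein that binds ribosomal RNA early in bacterial assembly, ran from 69.6 through 77.5 to 86.3 CPM with 30 mM and from 75.7 through 88 to 89.7 in those controls. With 10 mM it ran from 89.7 through 103 to 112 against 69, 84.9 and 92.1. Neither pair of groups was apart, and at -0.15 (edgeR adjusted p = 0.314) and 0.29 (adjusted p = 0.0886) neither concentration passed by itself. The difference was -0.45 (SE 0.13, adjusted p = 0.0281), and it missed without 30 mM well 6, 10 mM wells 1 or 6, or control well 5 of experiment 2. Mrpl12, the stalk protein that recruits translation factors and is also known to bind the mitochondrial RNA polymerase, ran from 134 through 144 to 164 CPM with 30 mM against 155, 165 and 186. With 10 mM it ran from 171 through 183 to 220 against 147, 171 and 184. It was at -0.19 (adjusted p = 0.106) and 0.15 (adjusted p = 0.459), and the difference of -0.35 (SE 0.10, adjusted p = 0.0475) stood just under the threshold. It passed in 7 of 24 fits with a well left out, those without 30 mM wells 1 or 2, control well 6 of experiment 1, 10 mM wells 1, 3 or 6, or control well 1 of experiment 2. With upper-quartile scaling the edgeR adjusted p was 0.0573 for Mrpl18, 0.063 for Mrps15 and 0.106 for Mrpl12. Mrpl12 also missed with the stricter filter, at 0.0572, and with limma voom, at 0.05.

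More members differed between the control groups than between ethanol wells and their controls, and the same held over all genes tested. Of all genes, 43.6% were called between controls, 9.67% at 30 mM and 0.657% at 10 mM. Of the 74 members 67 were higher in experiment 1, 90.5% against 49.2% of the 13479 genes tested, with a median log2 difference of 0.23 against -0.01. The test called 36 members, 48.6% beside 43.6% of all genes, of which 33 were higher in experiment 1, 44.6% beside 21.3%, and 3 lower, 4.05% beside 22.3%. Of the lists read below, 82.4% of tricarboxylic acid cycle genes and 53.3% of import genes tested were called higher. All 8 mitochondrial genome genes tested were called higher too, beside 0% to 25% in the other mitochondrial lists. All 6 wells of experiment 1 lay above all 6 of experiment 2 for 11 members, 14.9% beside 8.88% of all genes: Mrpl13, Mrpl33, Mrpl36, Mrpl37, Mrpl38, Mrpl39, Mrpl42, Mrpl50, Mrpl51, Mrpl57 and Mrps6. They lay below for 1, Mrps36, which was 1.35% beside 10%. The largest differences upward included Mrpl39 at 0.79 (SE 0.13, edgeR adjusted p = 4.6e-07), and Mrps6 was at 0.31 (SE 0.06, adjusted p = 3.94e-06). The difference between concentrations rests on both control groups, and what part this gap between them has in it was not tested.

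Mrpl23 and Mrps36 had the opposite sign to the median member in each of the 4 comparisons. Mrpl23, a protein at the exit of the tunnel, ran from 7.11 through 9.88 to 11.8 CPM with 30 mM against 2.2, 6.82 and 10, and from 8.67 through 11.4 to 14.6 with 10 mM against 8.9, 14.1 and 21. All groups overlapped, and it was at 0.60 (SE 0.29, edgeR adjusted p = 0.192) and -0.34 (SE 0.21, adjusted p = 0.622). Its control wells were lower in experiment 1 by -1.14 on the log2 scale (SE 0.26, adjusted p = 0.000159). Its counts were the fewest of any member. Mrps36 carries the symbol of a ribosomal protein, but its product is a subunit of the alpha-ketoglutarate dehydrogenase complex of the tricarboxylic acid cycle. It ran from 15.4 through 19.1 to 35.3 CPM with 30 mM against 10.8, 15.7 and 22, and from 17.2 through 20.1 to 29 with 10 mM against 24.5, 27.7 and 33.1. It was at 0.38 (SE 0.20, adjusted p = 0.231) and -0.33 (SE 0.15, adjusted p = 0.438), its difference was 0.70 (SE 0.24, adjusted p = 0.0968), and its controls differed by -0.73 (SE 0.16, adjusted p = 0.000119). Pseudogenes of these families held few counts, 14 in all 24 wells for Mrpl23-ps1, 44 for Mrpl48-ps, 23 for Mrps36-ps1, 33 for Mrps36-ps2 and 0 for Mrps36-ps3.

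Many members lie close to other genes, and whether the counting used strand is not given in the sources used here. In a GENCODE annotation of the earlier assembly, exons of 29 of the 74 members overlap another gene, 24 of them on the opposite strand and 6 on the same strand. Mrps11 and Mrpl46 overlap each other on opposite strands, over 7.97% of the exon bases of Mrps11, and Mrpl46 was at -0.14 at 30 mM (edgeR adjusted p = 0.53). Mrpl18 overlaps Tcp1 on the opposite strand over 10.1% of its exon bases, and Mrpl12 overlaps Gm16755 over 13.1%. For Mrpl20, Mrps10, Mrps15 and Mrps28 no overlap was found. Among the 4 genes that fell short of the count minimum, Mrpl53 is overlapped over 88% of its exon bases, Mrps34 over 77.8%, Mrps18b over 30.5% and Mrpl24 over 26.3%. Some well-counted members are widely overlapped too, such as Mrps25 over 69.8% (mean count 148.5) and Mrpl43 over 33.4% (mean count 85.96). The part of overlap in the low counts was not tested. The members lie on 17 chromosomes, with at most 11 on 1.

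Markers of cell types moved with ethanol in the same wells. For comparison, 3.02% of all genes tested were called higher and 6.65% lower at 30 mM, and 0.391% and 0.266% at 10 mM. At 30 mM 6 of 7 markers of mature oligodendrocytes rose, with a summed level of 5360 to 9640 CPM against 4340 to 4920 in the controls, and 3 of 5 astrocyte markers rose, with 4260 to 5410 against 3250 to 3860. Mural cell and fibroblast markers fell for 3 of 6, with 226 to 343 CPM against 527 to 708. Proliferation genes fell for 10 of 11, with a median of -0.47 and sums of 731 to 871 CPM against 1050 to 1160. None of the 4 precursor, 2 endothelial or 3 neuronal markers tested passed, and 1 of 3 microglial markers rose. At 10 mM 3 of 7 oligodendrocyte markers rose, 1 of 6 mural cell markers (Dcn) fell and 1 of 5 microglial markers (Cx3cr1) rose, with no proliferation gene passing. Dcn kept its call in 9 of 12 fits with a well left out and 7 of 8 with another setting, and Cx3cr1 in 5 of 12 and 6 of 8. Between controls, all 5 microglial markers tested were lower in experiment 1, at 62.3 to 114 CPM against 583 to 728, and 6 of 11 proliferation genes were higher. There 3 of 4 precursor markers were lower too, at 498 to 567 CPM against 626 to 683, and mural cell markers summed to 527 to 708 CPM against 298 to 389, with 1 of 6 higher and 2 lower. Of the 5 astrocyte markers 2 were higher and 2 lower, and 1 marker each of oligodendrocytes, endothelium and neurons was lower. Over all genes tested, 21.3% were called higher and 22.3% lower between controls. With so few markers a type, nothing is read there from 1 or 2 calls of a type. The part of the marker shifts in the members' values was not tested.

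Other genes of mitochondrial translation were read from lists of factors and enzymes. Among 11 translation factors tested none passed at 30 mM, with a median of -0.01, and none at 10 mM, with 0.04. Among the 17 mitochondrial aminoacyl-tRNA synthetases, which charge the organelle's transfer RNAs, none passed, with medians of 0.03 at 30 mM and -0.06 over the 15 tested at 10 mM. Factors of ribosome assembly and ribosomal RNA modification had medians of -0.03 over 25 genes and 0.03 over 23, again with no call. Genes of mitochondrial transcription and RNA stability had -0.14 over 9 and 0.04 over 8, with no call at either concentration. Twnk, the mitochondrial helicase of that list, passed for the difference at -0.95 (edgeR adjusted p = 0.0478) and kept it in 10 of 24 fits with a well left out and in 2 of 5 with another setting. Its exons and those of the member Mrpl43 overlap on opposite strands, over 33.4% of the exon bases of Mrpl43.

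Transcripts of the mitochondrial genome, the templates that these ribosomes translate, went up at 30 mM. Of 13 protein-coding genes 8 could be tested, and the others were listed at or near 0. Of the 8, 7 rose at 30 mM, 87.5% beside 3.02% of all genes called higher, with a median of 0.34. None passed at 10 mM, where the median was -0.07. mt-Nd4 rose by 0.37 (edgeR adjusted p = 0.000159). Counts of mitochondrial genome genes made up 4.09 ± 0.43% of the library with 30 mM and 3.32 ± 0.33% in its controls, and 2.05 ± 0.22% with 10 mM and 2.23 ± 0.11% in its controls (SD, n = 6 wells each). How far the share taken by these transcripts moved the members' values was not tested.

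Among other nuclear genes of mitochondria, the tricarboxylic acid cycle and the import and outer membrane lists had negative medians and calls at 30 mM. The synthetase, translation factor, assembly and transcription lists above had no call. Their median SE at 30 mM was 0.166, 0.142, 0.19 and 0.197, against 0.075 and 0.0859 in the lists with calls. A larger SE makes small changes harder to detect, but its part in the absence of calls was not tested. The lists without a call had median log2 fold changes of 0.03, -0.01, -0.03 and -0.14 at 30 mM, in the same order. In the tricarboxylic acid cycle 3 of 17 fell, 17.6% beside 6.65% of all genes called lower, with a median of -0.12. Mdh2 fell by 0.23 (edgeR adjusted p = 0.0233), Idh3a by 0.24 (adjusted p = 0.023) and Idh3g by 0.21 (adjusted p = 0.0495). In the list of import channels and outer membrane proteins 4 of 15 fell, 26.7% beside the same 6.65%, with a median of -0.17. Timm50, of the inner membrane translocase, fell by 0.34 (adjusted p = 0.00697), Vdac2 by 0.26 (adjusted p = 0.0205), Tomm40 by 0.28 (adjusted p = 0.026) and Tomm20 by 0.38 (adjusted p = 0.0319). Timm50 kept its call in all 12 fits with a well left out, Mdh2, Vdac2 and Tomm40 in 8, Idh3a in 7, Tomm20 in 5 and Idh3g in 2. Of 8 fits with another setting Idh3g passed in 2, Tomm20 in 6 and Tomm40 in 7, and the others named passed in all 8. At 10 mM neither list had a call, with medians of 0.02 and 0.05. The difference between concentrations was negative for all 17 and all 15 genes, with medians of -0.18 and -0.18, beside -0.19 in the members. It was negative for 41.2% to 66.7% of genes in the lists without a call at either concentration. For all 8 mitochondrial genome genes tested it was positive.

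**Figure D5:**
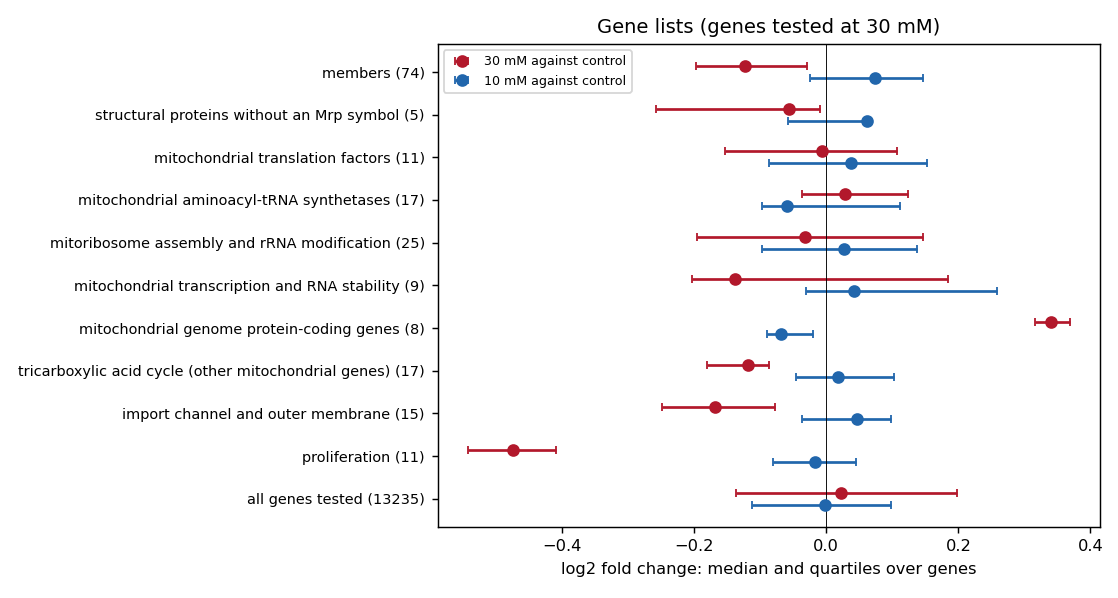
Median log2 fold change of each gene list at 30 mM (red) and 10 mM (blue) against its controls, with bars from the lower to the upper quartile over genes. The numbers in brackets are genes tested at 30 mM. The 74 members have a median of -0.12 at 30 mM, between the tricarboxylic acid cycle and import lists, while mitochondrial genome genes lie to the right at 0.34.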

How the data were processed

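The data are 3′ tag sequencing libraries of total RNA from 24 wells, single-end reads of 100 bases, per the labels' protocols. The authors deposited raw counts per Ensembl gene, with no normalization. Cutadapt 1.18, STAR and assembly GRCm39 are named in the submitters' processing notes; the counter, annotation, use of strand and treatment of PCR duplicates are not given in the sources used here, so intervals of counting would cover counting error only and none is printed. Symbols were matched for 52083 of 55359 rows.

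From these counts, edgeR 4.0.16 in R 4.3.3 gave quasi-likelihood tests with TMM scaling after filterByExpr with a minimum count of 10. Each concentration was tested against its own 6 control wells, the difference between concentrations over all 24 wells, and the control groups against each other. P-values were adjusted by Benjamini-Hochberg over all genes tested, with a threshold of 0.05. Level is CPM over the total counts of a well. Alternatives used limma 3.58.1 (voom), DESeq2 1.42.0, other scalings, filters and thresholds, a block for the replicate number, and each well left out in turn. The scripts were tested on simulated data. The 60 pairs of wells within groups all differed beyond sampling noise (chi-square per degree of freedom of at least 1.07). None therefore looked like the same library counted again. Each well was used as 1 replicate, and whether the wells were independent cell preparations cannot be told from this check.

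The members and gene lists were chosen with earlier results of these data known. Named members passed the threshold in a comparison, had the 3 largest or lowest fold changes at a concentration, the 5 highest levels or the 3 largest control differences, had groups that did not overlap, or were listed by name (Mrps30, Mrps18a, Mrps36, Mrpl12 and the 5 structural proteins without an Mrp symbol). Named genes of other lists passed the threshold, at most 5 a list. Members of the motif and overlap descriptions and those apart between control groups were named after their values were seen. Roles follow the current names of mitochondrial ribosomal proteins. Gene overlaps come from GENCODE M21 and promoters from RefSeq, both of the earlier mouse assembly, so no gene coordinate was joined to the counts. Protein sequences were not used here, and 1 marker of the oligodendrocyte list is not reported here.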

Additional observations from a re-analysis of the deposited data

Results flagged for a closer look

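Of 120 series of 6 wells, those of the named genes by group and those of depth, mitochondrial share and summed level, 9 held a well whose gap to its nearest neighbour was large for the range of its group, where chance alone gives about 1 in 20, or 6. Mrps28 was at 36 CPM in 30 mM well 2, with the other 5 wells at 25 to 29, and Mrpl52 was at 213 in 30 mM well 1, with the others at 156 to 176. Mrps30 was at 37.5 in 30 mM well 4, against 26.7 to 30.7. With 10 mM, Mrps10 was at 49.4 in well 5, against 33.8 to 39.3, and Mrpl39 at 31.6 in well 1, against 22.1 to 24.9. In control well 6 of experiment 1, Mrps15 was at 75.8 CPM, against 86.4 to 89.7, and Gadd45gip1 at 38.3, against 20.1 to 26.5. In the controls of experiment 2, Mrps15 was at 69 in well 5, against 84.2 to 92.1, and Mrpl3 at 33.4 in well 2, against 47 to 50.

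The fold changes at 30 mM and 10 mM differed, by the edgeR test of the difference itself, for Mrpl51 (-0.39, adjusted p = 0.0141), Mrpl18 (-0.44, adjusted p = 0.0224), Mrps15 (-0.45, adjusted p = 0.0281) and Mrpl12 (-0.35, adjusted p = 0.0475).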

How the results depend on the processing

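The median over the 74 members kept its sign in every fit run for each of the 4 comparisons. At 30 mM it was -0.0887 with upper-quartile scaling and -0.144 to -0.0863 with each well left out, and at 10 mM 0.0608 to 0.0918 with each well left out. The median difference between concentrations was -0.12 with upper-quartile scaling, -0.25 with no filter, -0.14 with the stricter filter and -0.25 to -0.18 with each well left out. Between control groups the median was 0.17, 0.28 and 0.17 under the same 3 settings and 0.22 to 0.26 with each well left out. Counts of called members moved more. At 30 mM edgeR called 4 with upper-quartile scaling, 1 at an adjusted p under 0.01, 10 at one under 0.1 and 2 to 10 with each well left out, beside 5 with DESeq2 and 7 with limma voom. At 10 mM it called 1, Mrps15, at an adjusted p under 0.1, and 0 to 1 with each well left out (1 without 10 mM well 3). For the difference it called 1 with upper-quartile scaling, 10 at an adjusted p under 0.1, 0 at one under 0.01 and 2 to 10 with each well left out, beside 4 with DESeq2 and 3 with limma voom. Between control groups it called 33 to 39 with each well left out. The cause of these moves was not tested.

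The replicate numbers did not pair the wells: same-numbered wells correlated at -0.18 to 0.25, over 0.1 in 1 of 12 pairs, and 1 of 12 correlated best with its own number. With the replicate number as a block, 7 members were called at 30 mM, 0 at 10 mM and 5 for the difference, adding Mrpl58 at -0.47 (edgeR adjusted p = 0.0444), with medians of -0.13, 0.08 and -0.20. Under the block Mrps18a was at 0.00534 at 10 mM.

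Of 3126 values of named genes under the alternatives, 197 lost their call, 16 gained a call and 46 changed sign. None of the 46 was a value that had passed the threshold. Values that pass lie far from 0 for their SE, so a change of their sign was unlikely beforehand. At 30 mM Ptcd3 was at 0.0256 with upper-quartile scaling and 0.0111 with limma voom, and Mrpl9 at -0.00164 in the joint fit of 24 wells and -0.0286 with no filter. At 10 mM Mrpl20 was at 0.00986 and Mrps18a at 0.0213 with no filter, and Mrps18a at 0.000462 with DESeq2 and 0.00758 in the joint fit. For the difference Dap3 was at 0.0166 with the stricter filter, and with upper-quartile scaling Dap3 was at 0.0414 and Mrps6 at 0.0197. With each well left out, the ranges at 30 mM were -0.118 to 0.00424 for Aurkaip1, -0.00517 to 0.0891 for Dap3, -0.0923 to 0.0693 for Mrpl9 and -0.0912 to 0.0697 for Ptcd3. At 10 mM they were -0.113 to 0.0242 for Gadd45gip1, -0.0277 to 0.0105 for Mrpl20, -0.0598 to 0.0608 for Mrps10, -0.0384 to 0.0944 for Mrps11 and -0.0523 to 0.0643 for Mrps18a.

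The typical SE was larger in the least counted members than in the most counted, and the part of depth in the calls was not tested. The SE at 30 mM reached 0.29 on the log2 scale in Mrpl23, the least counted, beside 0.06 in Mrps6, the most counted. A change the size of the median did not pass even in Mrps6, at -0.13 (edgeR adjusted p = 0.233). The smallest fall called at 30 mM was that of Mrpl51, at -0.22.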
